A study of Homo sapiens with 6 samples.

Results

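The tumour necrosis factor (TNF) superfamily of ligands and its receptors were examined in lenvatinib-sensitive and lenvatinib-resistant hepatocellular carcinoma cells. Members were the rows whose symbol began with TNFRSF or TNFSF, together with CD40, CD70, FAS, LTBR, EDAR, EDA2R, NGFR, TNF, LTA and LTB, which gave 42 of 24432 gene symbols. Of these, 25 were receptors, 15 were ligands and 2 were noncoding loci named after a receptor, TNFRSF10A-DT and TNFRSF14-AS1. CD27, CD40LG, FASLG, TNFRSF13B and TNFRSF18 were not analysed here.

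The labels of all 6 libraries name PLC/PRF/5 cells, a hepatocellular carcinoma line of human origin long in culture, grown in DMEM with fetal bovine serum. The 3 sensitive libraries carried the genotype label WT and the treatment label control. The 3 resistant libraries carried the genotype label Lenvatinib resistant and the treatment label Lenvatinib, an oral inhibitor of VEGF and FGF receptor kinases. Per the labels, the resistant cells were selected from 20 µmol/L upward in steps of 0.5 mmol/L to 40 mmol/L, so the stated units of the start and of the later doses differ. Drug exposure and resistance were present in the same libraries and cannot be told apart. The series title places its question on GOLM1 and EGFR signalling, and the TNF families were not named in it. Whether the replicates came from different cultures is not in the labels, and the p-values therefore reflect the scatter of these libraries, which may be technical.

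TNF superfamily ligands are mostly membrane proteins that assemble as trimers, act on neighbouring cells or are shed, and bind receptors with cysteine-rich repeats outside the cell. Receptors with a death domain recruit adaptors that can activate caspases, whereas the other signalling receptors bind TRAF adaptors and lead mainly to NF-κB and kinase activation, and decoy receptors bind a ligand without passing on a full signal. In liver, FAS and the receptors for TRAIL are known for hepatocyte death, TNF for its action on hepatocyte survival and regeneration, and TNFRSF12A (Fn14) for its induction in injured and progenitor-like epithelium.

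The values were taken as FPKM, a level that is scaled to transcript length and sequencing depth and can be compared between genes. The low values lay on whole steps, which implied 38467303 to 39779356 reads per library, so depth hardly differed between the libraries. Of 11694 genes tested with limma on log2(FPKM + 1), 7920 (67.7%) differed between resistant and sensitive cells at a Benjamini-Hochberg adjusted p under 0.05, with 35.2% higher and 32.5% lower in resistant cells. Hepatocyte markers summed to 5220 to 5400 FPKM in the sensitive libraries and to 19.5 to 51.3 FPKM in the resistant ones, over 16 genes, and albumin (ALB) stood at 0, 0.0222 and 0 FPKM in resistant replicates 1, 2 and 3. The label of a hepatocellular line thus met many of its markers in the sensitive libraries, but not all 16. ALB was low there too, at 4.02, 3.61 and 2.01 FPKM in sensitive replicates 1, 2 and 3. TTR and HP stayed under 1 FPKM in every library. In the resistant libraries several of the markers were at or near 0, while SERPINA1, the highest, was still at 10.0, 20.9 and 8.66 FPKM. Sensitive replicate 3 stood apart from the other sensitive libraries, with a Pearson's r across tested genes of 0.9515 and 0.9643 to them, against 0.9947 between those 2. Libraries of different groups correlated at 0.6796 to 0.7064. Whether both groups derive from the same line was not tested, and a difference in cell identity and resistance cannot be told apart in any comparison here.

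Resistant cells carried more receptor mRNA and a different set of ligands. Of the 25 receptors 13 passed the filter of at least 1 FPKM in at least 3 libraries, of which 9 were higher, 2 were lower and 2 were not called. Of the 15 ligands 7 passed, of which 4 were higher, 2 were lower and 1 was not called. That is 84.6% of the tested receptors and 85.7% of the tested ligands called. Over all tested genes 67.7% were called, 35.2% higher and 32.5% lower. The median log2 fold change was 1.51 for the tested receptors and 1.54 for the tested ligands, beside 0.08 for all tested genes. The filter fixed part of these directions, because 8 of the 20 tested receptors and ligands were under 1 FPKM in every sensitive library and 2 were under 1 FPKM in every resistant library. Among the 10 at 1 FPKM or more in at least 1 library of each group, 5 were higher, 2 lower and 3 not called, beside 61.9% called (32.2% higher and 29.7% lower) over all genes of that kind. The ranges of both groups were separate in 19 of the 20, beside 74.4% of all tested genes, and in 9 of those 10, beside 69.7% of genes of that kind.

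**Figure D1:**
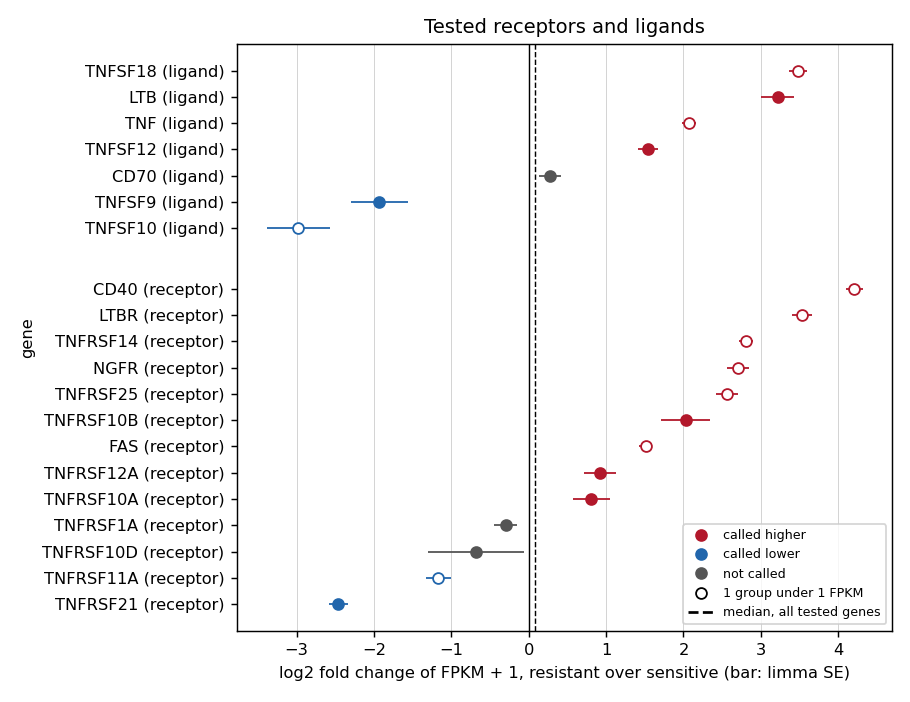
Log2 fold change of FPKM + 1 (x axis, resistant over sensitive, bars show limma's standard error) for the 13 tested receptors and 7 tested ligands (y axis). Red genes were called higher, blue lower and grey not called. Filled points are genes at 1 FPKM or more in both groups, open points were under 1 FPKM in every library of 1 group, and the dashed line at 0.08 is the median of all tested genes; CD40 lies highest at 4.21 and TNFSF10 lowest at -2.98.

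Adding 1 to FPKM before taking logs compresses the change of genes near 0. With a pseudocount of 0.1 the size of the log2 fold change grew by more than 1.5 times for 10 members without a change of call: 4.21 became 7.22 for CD40, 3.53 became 5.94 for LTBR, 2.81 became 5.65 for TNFRSF14, 2.71 became 5.00 for NGFR, 2.56 became 4.03 for TNFRSF25, 1.51 became 4.26 for FAS, 2.07 became 4.27 for TNF, 3.48 became 6.64 for TNFSF18 and -2.98 became -5.89 for TNFSF10. TNFRSF11A moved likewise, from -1.17 to -1.93. The RNA came from bulk cultures, in which fewer cells of a type and less RNA per cell cannot be told apart.

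Among the receptors with a death domain, the TRAIL receptor TNFRSF10B (DR5), which binds the adaptor FADD after ligand contact, had the highest level in resistant cells. Its values were 22.0, 22.5 and 50.7 FPKM in sensitive replicates 1, 2 and 3 and 133, 130 and 108 FPKM in resistant replicates 1, 2 and 3. The groups did not overlap, and sensitive replicate 3 lay between the other sensitive libraries and the resistant ones. The rise was 2.03 on the log2 scale (SE 0.316, limma adjusted p = 0.00113), from 31.7 ± 16.4 to 124 ± 13.8 FPKM (mean ± SD, n = 3 per group here and below), and 2.42 without sensitive replicate 3. The gene overlaps RHOBTB2 and an antisense gene in RefSeq, and the TNFRSF10 genes are close paralogs, so reads could be shared or split among them.

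TNFRSF10A (DR4), the other TRAIL receptor with a death domain, stood at 10.3, 10.9 and 19.6 FPKM in the sensitive and 23.8, 25.1 and 22.3 FPKM in the resistant libraries. Every resistant library was above every sensitive one, by a small margin over sensitive replicate 3. Its log2 fold change was 0.81 (SE 0.234, limma adjusted p = 0.0189). The call ended without sensitive replicate 2 (adjusted p = 0.0646), without resistant replicate 1, 2 or 3 (0.0593, 0.066 and 0.0506) and in a test against a 1.5-fold change (0.369), while omitting sensitive replicate 3 gave 1.09 (adjusted p = 4.97e-06).

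FAS (CD95), the receptor of FAS ligand, was at 0.00543, 0 and 0 FPKM in the sensitive libraries, which corresponds to 2, 0 and 0 implied reads. In the resistant libraries it was at 1.69, 2.06 and 1.81 FPKM, or 616, 755 and 662 reads. FAS was thus close to undetected in sensitive cells and remained among the lower of the tested receptors in resistant cells (log2 fold change 1.51, SE 0.0802, limma adjusted p = 6.02e-06). The actin gene ACTA2, which overlaps FAS in RefSeq, was listed at 0 in all sensitive libraries and reached 2.77, 3.22 and 2.30 FPKM in resistant cells. The counting is not stated to use strand, and the part of shared reads was not tested.

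For FAS, TNF, LTB and TNFSF10, chosen after their values were seen from the called members whose first window held a match to a motif searched (TNFRSF14 and TNFSF9 were the others), the 250 bases before the transcription start are shown, from RefSeq on GRCh38.p14. The table of promoters matched 26 of the 42 members. In them 3 motifs were searched on both strands: AP-1 (TGANTCA), the NF-κB consensus and the TATA box (TATAAA). Capitals mark a match.

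FAS (chr10:88990548-88990797, + strand): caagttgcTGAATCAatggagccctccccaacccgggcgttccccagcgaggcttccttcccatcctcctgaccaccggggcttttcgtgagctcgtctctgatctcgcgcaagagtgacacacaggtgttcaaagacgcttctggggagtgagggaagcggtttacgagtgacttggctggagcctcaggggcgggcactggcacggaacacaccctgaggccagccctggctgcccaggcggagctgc
TNF (chr6:31575315-31575564, + strand): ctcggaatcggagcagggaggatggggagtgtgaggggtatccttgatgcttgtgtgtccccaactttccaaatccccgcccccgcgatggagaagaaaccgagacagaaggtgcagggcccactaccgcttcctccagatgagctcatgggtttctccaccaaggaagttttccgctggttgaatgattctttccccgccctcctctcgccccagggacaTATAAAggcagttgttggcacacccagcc
LTB (chr6:31582426-31582675, - strand): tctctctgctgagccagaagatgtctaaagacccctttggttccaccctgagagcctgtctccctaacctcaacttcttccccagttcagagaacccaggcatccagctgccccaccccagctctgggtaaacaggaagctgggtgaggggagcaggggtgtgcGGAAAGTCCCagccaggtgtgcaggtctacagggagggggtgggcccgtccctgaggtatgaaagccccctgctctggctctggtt
TNFSF10 (chr3:172523431-172523680, - strand): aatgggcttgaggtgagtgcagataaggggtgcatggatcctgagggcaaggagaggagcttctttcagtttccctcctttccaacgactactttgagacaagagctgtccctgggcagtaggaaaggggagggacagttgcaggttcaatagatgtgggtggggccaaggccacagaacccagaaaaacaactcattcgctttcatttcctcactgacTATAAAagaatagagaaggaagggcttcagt

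In this window the FAS promoter held TGAATCA, a match to the AP-1 motif, 242 bases before the start. The LTB promoter held GGAAAGTCCC, a match to the NF-κB consensus, 86 bases before the start. TNF and TNFSF10 each held a TATA box, 29 and 31 bases before the start, and matched neither of the other motifs. Over the first listed window of 27305 genes the AP-1 motif was found in 6.6%, the NF-κB consensus in 9.57% and TATAAA in 11.1%. Of the 26 matched members 4, 4 and 3 held them in their first window. A match describes the letters of the window and does not show binding.

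NGFR (p75NTR), the low-affinity neurotrophin receptor, rose from 0.0148, 0.249 and 0.0984 FPKM in the sensitive to 7.34, 6.37 and 5.30 FPKM in the resistant libraries (log2 fold change 2.71, SE 0.143, limma adjusted p = 5.78e-06). Its sensitive values rested on 2, 34 and 13 implied reads, and the ratio of the group means was 52.5. TNFRSF25 (DR3), the receptor of TNFSF15, rose from 0.335, 0.464 and 0.217 to 6.35, 6.19 and 8.27 FPKM (log2 fold change 2.56, limma adjusted p = 7.26e-06), a ratio of means of 20.5. It overlaps ESPN in RefSeq, with which reads could be shared. Both receptors were low in every sensitive library and in the range of 5.30 to 8.27 FPKM in every resistant one.

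TNFRSF1A (TNFR1), the main receptor of soluble TNF, was abundant in both groups, at 65.2, 72.8 and 95.9 FPKM in the sensitive and 64.6, 59.2 and 63.0 FPKM in the resistant libraries. The groups did not overlap but nearly touched, and the difference did not pass the test (log2 fold change -0.30, SE 0.153, limma adjusted p = 0.121). Without sensitive replicate 1 it passed as lower in resistant cells (-0.42, adjusted p = 0.0442). Leaving out sensitive replicate 3 instead gave -0.14 (adjusted p = 0.114).

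TNFRSF21 (DR6) was the death-domain receptor that fell. It stood at 33.8, 35.5 and 28.0 FPKM in the sensitive and 4.83, 5.35 and 5.03 FPKM in the resistant libraries, with the sensitive mean 6.40 times the resistant one (log2 fold change -2.46, SE 0.126, limma adjusted p = 5.13e-06). The last death-domain receptor, EDAR, which takes part in the development of skin appendages, was listed at 0 in all 6 libraries.

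**Figure D2:**
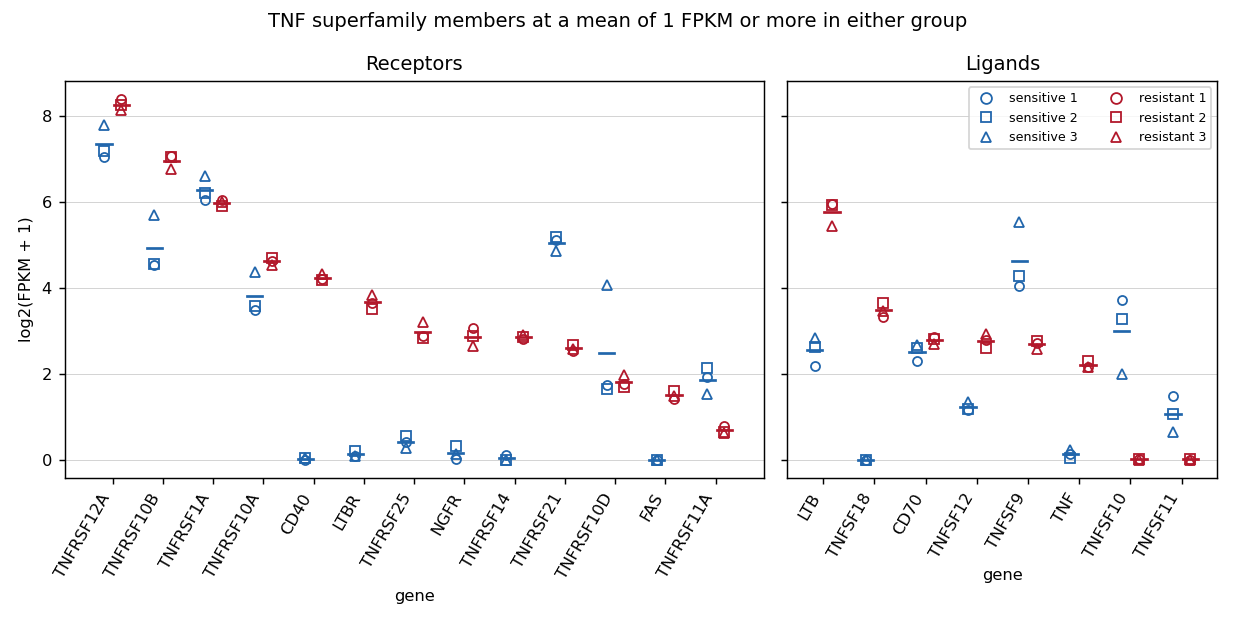
Level of each receptor (left) and ligand (right) with a mean of at least 1 FPKM in either group, as log2(FPKM + 1) on the y axis, by gene on the x axis; each symbol is 1 library, blue for sensitive and red for resistant, and horizontal bars are means over 3 libraries. CD40, LTBR, NGFR, TNFRSF14, FAS, TNFSF18 and TNF lie near 0 in the sensitive libraries alone, and TNFSF10 and TNFSF11 in the resistant libraries alone.

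Among the receptors that signal through TRAF adaptors without a death domain, CD40 had the highest log2 fold change of the tested members on the log2(FPKM + 1) scale. CD40, best known from B cells and antigen-presenting cells, was at 0, 0.0275 and 0.0379 FPKM in the sensitive libraries, or 0, 3 and 4 implied reads. The resistant libraries held 17.4, 17.3 and 19.1 FPKM, or 1853, 1850 and 2047 reads. Its log2 fold change was 4.21 (SE 0.106, limma adjusted p = 4.41e-07). LTBR, the lymphotoxin beta receptor that drives non-canonical NF-κB signalling, was at 0.0642, 0.163 and 0.0657 FPKM in the sensitive and rose to 11.6, 10.4 and 13.3 FPKM in the resistant libraries (log2 fold change 3.53, SE 0.126, limma adjusted p = 1.1e-06), a ratio of means of 120. It overlaps SCNN1A in RefSeq. TNFRSF14 (HVEM), which binds TNFSF14 and lymphotoxin alpha, rose from 0.0851, 0.00841 and 0 to 6.02, 6.23 and 6.48 FPKM (log2 fold change 2.81, limma adjusted p = 8.65e-07), with 10, 1 and 0 implied reads in the sensitive libraries. Its antisense neighbour TNFRSF14-AS1 was listed at 0 in the sensitive and at 0.127, 0.264 and 0.406 FPKM in the resistant libraries. All 3 receptors were near 0 in every sensitive library and differed little between the resistant ones.

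TNFRSF12A (Fn14), the small receptor of TNFSF12, was the most abundant member in both groups. It stood at 130, 145 and 220 FPKM in the sensitive and 334, 305 and 278 FPKM in the resistant libraries, and it made up 48.6% to 50.8% of the summed receptor FPKM in the sensitive and 52.0% to 54.3% in the resistant libraries. The groups did not overlap, and the mean was 165 ± 48.5 FPKM in sensitive and 306 ± 27.8 FPKM in resistant cells (log2 fold change 0.92, SE 0.204, limma adjusted p = 0.00611). In a test against a 1.5-fold change it was not called (adjusted p = 0.167). Its log2 fold change was 1.15 when sensitive replicate 3 was omitted.

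TNFRSF11A (RANK), the receptor of TNFSF11 in osteoclast and mammary biology, fell from 2.80, 3.38 and 1.88 to 0.730, 0.568 and 0.555 FPKM (log2 fold change -1.17, SE 0.164, limma adjusted p = 0.000679). In resistant cells it was under 1 FPKM throughout. TNFRSF9 (4-1BB), a costimulatory receptor of T cells that did not pass the filter, was at 0.0954, 0.0907 and 0.180 FPKM in the sensitive and 0.543, 0.506 and 0.373 FPKM in the resistant libraries.

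Of the 4 decoy receptors 1 was tested, and it was not called. TNFRSF10D (DcR2), a TRAIL receptor with a truncated death domain, was at 2.33, 2.16 and 15.9 FPKM in the sensitive and 2.39, 2.27 and 2.93 FPKM in the resistant libraries. Only sensitive replicate 3 was high, at 7.07 times the mean of the other sensitive libraries, and the groups overlapped. TNFRSF10D was not called (log2 fold change -0.68, SE 0.622, limma adjusted p = 0.363), and its direction turned without sensitive replicate 3 (0.12, adjusted p = 0.35). TNFRSF10C (DcR1) reached at most 0.129 FPKM, on 7 implied reads. TNFRSF11B (osteoprotegerin), the secreted decoy of TNFSF11, was listed at 0 in the sensitive and at 0.269, 0.474 and 0.462 FPKM in the resistant libraries. TNFRSF6B (DcR3) was at 0.0668 FPKM in resistant replicate 2 and at 0 elsewhere.

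Among the ligands, LTB became the leading transcript in resistant cells. LTB, the membrane subunit that joins lymphotoxin alpha in the ligand of LTBR, stood at 3.58, 5.16 and 6.12 FPKM in the sensitive and 61.3, 59.5 and 42.5 FPKM in the resistant libraries. The groups were far apart, and the mean rose 11.0-fold from 4.95 ± 1.28 to 54.4 ± 10.4 FPKM (log2 fold change 3.22, SE 0.213, limma adjusted p = 1.66e-05). TNF itself was at 0.105, 0.0297 and 0.169 FPKM in the sensitive and higher, at 3.50, 3.92 and 3.47 FPKM, in the resistant libraries (log2 fold change 2.07, SE 0.095, limma adjusted p = 3.1e-06), a ratio of means of 35.8 on 7, 2 and 11 implied reads in the sensitive libraries. LTA, the soluble lymphotoxin subunit, did not pass the filter and stood at 0.00973, 0.0481 and 0.00996 FPKM in the sensitive and 0.177, 0.245 and 0.176 FPKM in the resistant libraries. The 3 genes are neighbours in RefSeq with no other coding gene between them, and each was higher in every resistant library than in any sensitive one. TNFSF14 (LIGHT), another ligand of LTBR and TNFRSF14, reached at most 0.147 FPKM.

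TNFSF18 (GITR ligand), a T cell costimulator, was at 0, 0 and 0.0094 FPKM in the sensitive libraries, 1 implied read in all. It reached 9.09, 11.6 and 10.1 FPKM in the resistant libraries, or 977, 1250 and 1092 reads (log2 fold change 3.48, SE 0.117, limma adjusted p = 9.06e-07). Its neighbour in RefSeq, TNFSF4 (OX40 ligand), stayed under the filter with 0.0951, 0.0595 and 0.107 FPKM in the sensitive and 0.00787, 0.0313 and 0.0273 FPKM in the resistant libraries. TNFSF12 (TWEAK), the ligand of TNFRSF12A, rose in every resistant library, to 5.97, 5.05 and 6.61 FPKM from 1.25, 1.27 and 1.56 FPKM (log2 fold change 1.54, SE 0.131, limma adjusted p = 5.67e-05). It shares a readthrough transcript with its neighbour TNFSF13 (APRIL), which was at no more than 0.106 FPKM in any library.

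TNFSF10 (TRAIL), the ligand of the 4 TNFRSF10 receptors, fell to near 0. It stood at 12.2, 8.74 and 2.98 FPKM in the sensitive libraries, on 1444, 1047 and 345 implied reads. The resistant libraries held 0.0171, 0.0255 and 0.00849 FPKM, on 2, 3 and 1 reads. The sensitive libraries differed from each other by several times, with replicate 3 lowest, but all lay far above the resistant ones (log2 fold change -2.98, SE 0.409, limma adjusted p = 0.000615, and -3.48 without sensitive replicate 3).

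TNFSF9 (4-1BB ligand) was the leading ligand of sensitive cells, at 15.6, 18.4 and 45.5 FPKM, and fell to 5.61, 5.80 and 5.03 FPKM in resistant cells (log2 fold change -1.93, SE 0.372, limma adjusted p = 0.00317). Sensitive replicate 3 was 2.68 times the mean of the other sensitive libraries, and its omission gave a log2 fold change of -1.47 (adjusted p = 3.52e-06). CD70, the ligand of CD27 and the neighbour of TNFSF9 in RefSeq, was at 3.91, 5.09 and 5.36 FPKM in the sensitive and 6.31, 6.03 and 5.52 FPKM in the resistant libraries. It was not called (log2 fold change 0.27, SE 0.142, limma adjusted p = 0.129), but passed as higher without sensitive replicate 3 (0.34, adjusted p = 0.0279).

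TNFSF11 (RANKL) had a sensitive mean above 1 FPKM but missed the filter because sensitive replicate 3 was low. It stood at 1.82, 1.1 and 0.585 FPKM in the sensitive libraries, on 217, 132 and 68 implied reads. The resistant libraries held 0, 0.0254 and 0.00845 FPKM, on 0, 3 and 1 reads. The groups did not overlap. Tested with no filter, its log2 fold change was -1.06 (limma adjusted p = 0.00851).

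The remaining members were scarce. Of the 40 receptors and ligands, 19 stayed under 1 FPKM in every library, 12 receptors and 7 ligands, with a highest value of 0.643 FPKM. That value was TNFRSF8 (CD30) in sensitive replicate 3, on 105 implied reads, against 0 and 1 read in the other sensitive libraries and 0 in the resistant ones. TNFRSF19 (TROY) was at 0.197, 0.236 and 0.155 FPKM in the sensitive libraries and at no more than 0.00827 FPKM in the resistant ones. TNFRSF13C (BAFF receptor) ranged from 0.0912 to 0.407 FPKM with overlapping groups. TNFSF15, the ligand of TNFRSF25, was at 0.0494 to 0.168 FPKM in the resistant libraries and at 0.0224 FPKM or less in the sensitive ones. TNFRSF1B, TNFRSF4, TNFRSF17, EDA2R, TNFSF8 and TNFSF13B were each at or under 0.0573 FPKM in every library. TNFRSF10A-DT, a noncoding transcript that starts next to TNFRSF10A, was at 2.46, 2.58 and 3.92 FPKM in the sensitive and 2.68, 2.99 and 2.75 FPKM in the resistant libraries (log2 fold change -0.05, limma adjusted p = 0.805).

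Set side by side, ligands and their receptors followed several patterns. LTB and LTBR were both higher in resistant cells, as were TNFSF12 and TNFRSF12A. TNFSF10 fell while its receptors TNFRSF10A and TNFRSF10B rose, and TNFSF11 and TNFRSF11A were both lower by their values in resistant libraries. TNF rose and TNFRSF1A was not called. BDNF, a ligand of NGFR outside the TNF superfamily, stood at 0.162 ± 0.0587 FPKM in sensitive cells and rose to 7.37 ± 0.316 FPKM in resistant cells (log2 fold change 2.85, limma adjusted p = 1.03e-06). It did not reach 1 FPKM in a sensitive library.

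The summed level of the 25 receptors was 268, 294 and 434 FPKM in the sensitive and 615, 577 and 536 FPKM in the resistant libraries. That of the 15 ligands was 38.6, 39.9 and 62.6 FPKM in the sensitive and 92.2, 92.5 and 73.6 FPKM in the resistant libraries. Receptor mRNA thus exceeded ligand mRNA in each library. In sensitive cells the receptors ranked TNFRSF12A (165 FPKM), TNFRSF1A (78.0), TNFRSF21 (32.4), TNFRSF10B (31.7) and TNFRSF10A (13.6), of which TNFRSF21 and TNFRSF10B did not differ beyond their spread. In resistant cells they ranked TNFRSF12A (306), TNFRSF10B (124), TNFRSF1A (62.3), TNFRSF10A (23.7) and CD40 (17.9). Among ligands TNFSF9 made up 40.4% to 72.7% of the summed FPKM in sensitive libraries and 6.09% to 6.83% in resistant ones, where LTB made up 57.8% to 66.5%. Below LTB and TNFSF18, the ligands CD70 (5.95 ± 0.399), TNFSF12 (5.88 ± 0.783) and TNFSF9 (5.48 ± 0.402 FPKM) did not differ beyond their spread.

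**Figure D3:**
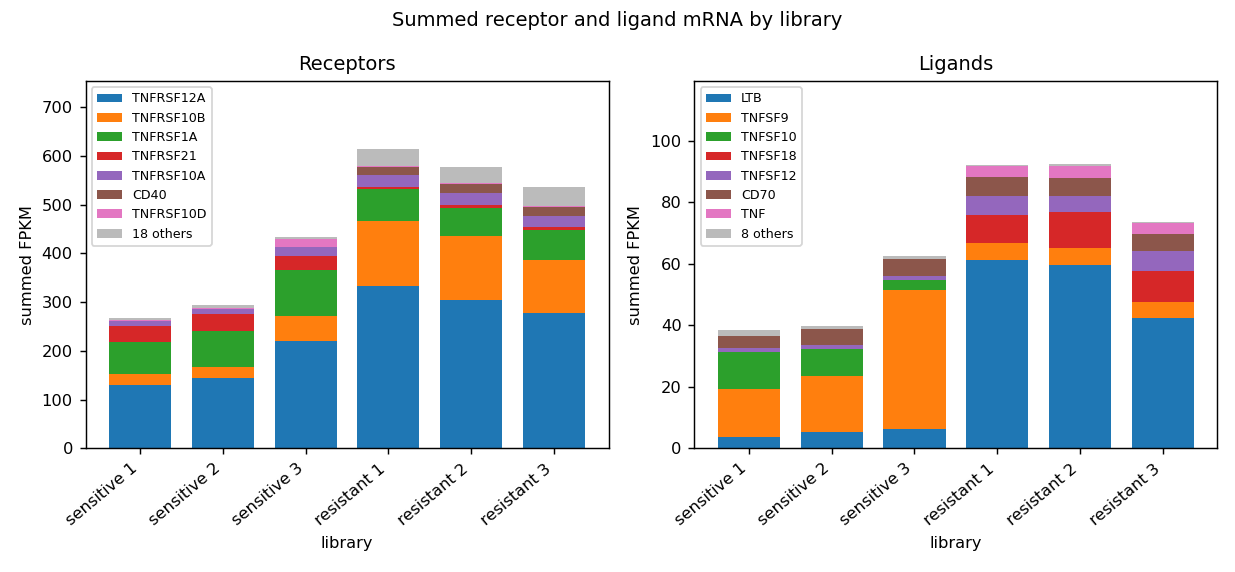
Summed FPKM (y axis) of the 25 receptors (left) and 15 ligands (right) in each of the 6 libraries (x axis), stacked by gene, with the less abundant genes in grey. Receptor sums lie between 268 and 434 in the sensitive and between 536 and 615 in the resistant libraries, and LTB (blue, right) takes the place of TNFSF9 (orange, right) as the largest ligand share.

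Several of these ligands and receptors are best known from leukocytes. Of the leukocyte markers 10 of 15 were in the files and 3 reached 1 FPKM in any library, LYZ, CD68 and FCER1G. Their summed level was 251 to 269 FPKM in the sensitive and 2.87 to 5.91 FPKM in the resistant libraries, made up mostly of LYZ in the sensitive libraries (238 to 249 FPKM) and mostly of CD68 in the resistant ones (2.28, 3.14 and 3.58 FPKM). The pan-leukocyte gene PTPRC was at 0 in all 6 libraries, and CD3D, CD2 and NKG7 were at no more than 0.112 FPKM. The 7 endothelial markers in the files summed to at most 0.348 FPKM. Among 9 fibroblast and stellate markers ACTA2, listed at 0 in sensitive cells, and PDGFRB, at 1.22, 1.09 and 0.526 FPKM in the sensitive and at most 0.0354 FPKM in the resistant libraries, were those that reached 1 FPKM. Resistant replicate 2 held the highest hepatocyte marker sum of the resistant libraries, 51.3 FPKM against 19.5 and 20.5, and also the most implied reads of TNFSF10 (3, against 2 and 1) and TNFSF11 (3, against 0 and 1). Read numbers this low rest on counting noise. The part of the cell type markers in the results was not tested.

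Sensitive replicate 3 differed from the other sensitive libraries by 2-fold or more in 4 of the 12 tested receptors and ligands with a mean of at least 1 FPKM in those libraries, beside 18.5% of 10580 tested genes of that level. TNFRSF10D, TNFSF9 and TNFRSF10B were 7.07, 2.68 and 2.28 times the mean of replicates 1 and 2, and TNFSF10 was 0.285 times that mean. TNFSF11, which was not tested, was 0.4 times it. In TNFRSF10B and TNFSF10 it lay on the side of the resistant libraries, and in TNFSF9 away from them.

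**Figure D4:**
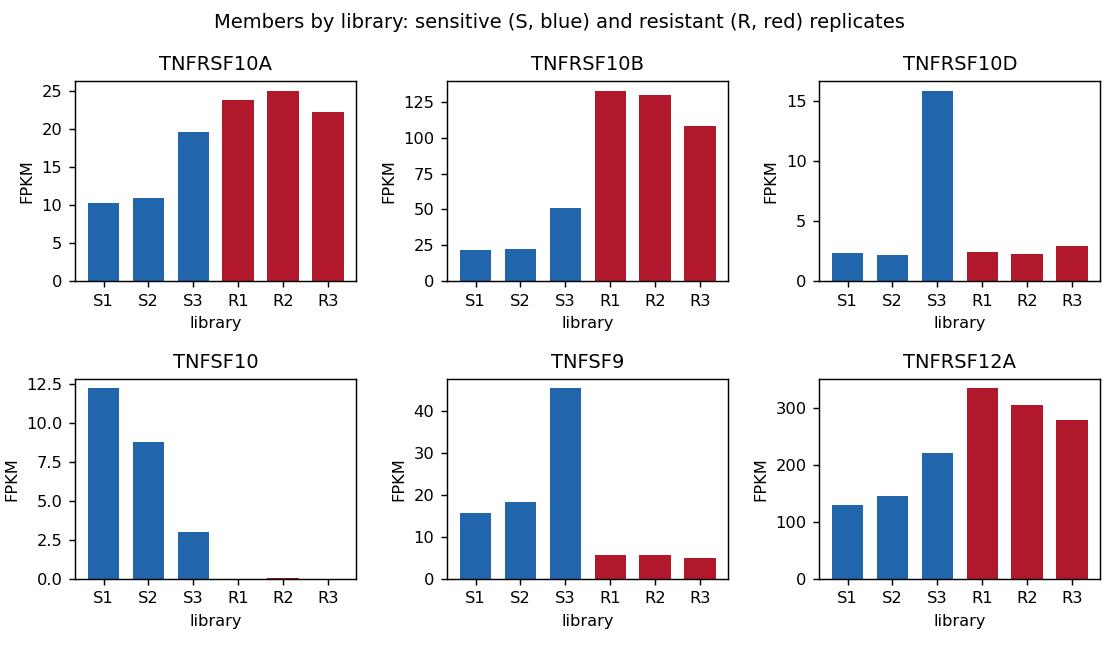
FPKM (y axis, linear, from 0, own scale in each panel) of 6 members in each library (x axis), blue for sensitive (S) and red for resistant (R) replicates. Sensitive replicate 3 stands above the other sensitive libraries in TNFRSF10D (15.9 FPKM against 2.33 and 2.16) and TNFSF9 (45.5 against 15.6 and 18.4) and below them in TNFSF10 (2.98 against 12.2 and 8.74).

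The intracellular machinery of the receptors was described from lists of pathway genes. Of 18 tested genes of death receptor signalling and caspases 11 rose, 4 fell and 3 were not called, with a median log2 fold change of 0.64. That is 83.3% called, beside 67.7% of all tested genes (35.2% higher and 32.5% lower), which is also the background of the lists that follow. BID, which links death receptors to mitochondria, rose from 3.92 ± 0.677 to 16.7 ± 1.42 FPKM (log2 fold change 1.85, limma adjusted p = 3.71e-05). Rises were also found in CFLAR, the inhibitor of caspase-8 activation (1.63), and in the survival gene BCL2L1 (1.49, from 148 ± 37.4 to 412 ± 38.9 FPKM). The members that rose thus included both mediators and inhibitors of cell death. The initiator CASP8, at 15.5 ± 2.24 and 13.2 ± 0.642 FPKM, and the adaptor TRADD were not called.

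Of 18 tested TRAF adaptors and IKK kinases 6 rose, 2 fell and 10 were not called, with a median of 0.28 and 44.4% called, below the 67.7% of all tested genes. TRAF1, itself an NF-κB target, rose from 0.952 ± 0.0389 to 12.4 ± 2.83 FPKM (log2 fold change 2.76, limma adjusted p = 1.48e-05), TRAF5 by 1.23, TRAF6 by 0.98 and MAP3K14 (NIK), the kinase of the non-canonical pathway, by 0.93. TRAF1 and TRAF5 were under 1 FPKM in every sensitive library, so the filter fixed their direction. The 2 that fell were TRAF4 (-0.69, limma adjusted p = 0.0121) and CHUK (-0.71, limma adjusted p = 0.025), an IKK kinase of the non-canonical pathway. The number called was 5 without resistant replicate 2 or resistant replicate 3, beside 57.1% and 58.6% of all tested genes. In a test against a 1.5-fold change it was 2, beside 37.3% of all tested genes. That test ended the calls of TRAF6 (adjusted p = 0.0582) and MAP3K14 (0.21).

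Of 16 NF-κB subunits and inhibitors 11 rose, 1 (BCL3) fell and 4 were not called, with a median of 0.77 and 75.0% called, beside 67.7% of all tested genes. The inhibitor-like NFKBIZ rose from 2.61 ± 0.333 to 40.7 ± 3.58 FPKM (log2 fold change 3.53, limma adjusted p = 1.17e-06), the ubiquitin-editing inhibitor TNFAIP3 (A20) from 3.24 ± 1.01 to 25.7 ± 2.35 FPKM (2.67), the non-canonical subunit RELB from 9.96 ± 3.18 to 46.5 ± 6.72 FPKM (2.14) and the deubiquitinase CYLD by 1.95. NFKB2, another subunit of the non-canonical pathway, was not called, at 86.8 ± 40.3 and 68.6 ± 11.3 FPKM (-0.26, limma adjusted p = 0.474). REL, NFKBIE and OTUD7B were not called either. In a test against a 1.5-fold change 6 of the list were called, beside 37.3% of all tested genes. Of 12 tested NF-κB target genes 10 rose and 2, CCL20 and SOD2, were not called, with a median of 2.41 and 83.3% called, beside 67.7% of all tested genes. The largest rises were those of IL6 (8.02, from 0.214 ± 0.0625 to 314 ± 5.12 FPKM), TNFAIP2 (5.54), LCN2 (4.95) and CXCL2 (4.13). IL6, TNFAIP2 and LCN2 were among the 4 of the 12 that were under 1 FPKM in every sensitive library, so the filter fixed their direction. Of the other 8, 6 were higher and 2 were not called. Over all tested genes at 1 FPKM or more in at least 1 library of each group, 61.9% were called and 32.2% were higher.

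Of 6 genes of the linear ubiquitin machinery, which modifies the TNFRSF1A complex, 4 were called (66.7%), a share near the 67.7% of all tested genes. RBCK1 (HOIL-1) rose from 10.2 ± 5.81 to 54.5 ± 1.79 FPKM (log2 fold change 2.43, limma adjusted p = 0.000497), SHARPIN by 0.76 and the deubiquitinase OTULIN by 0.49, while the catalytic subunit RNF31 (HOIP) fell by 0.59 (adjusted p = 0.0203). The call of RNF31 ended without resistant replicate 2 or 3 (adjusted p = 0.0585 and 0.0782). In a test against a 1.5-fold change RBCK1 alone was called, beside 37.3% of all tested genes.

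Of 9 genes listed for shedding or processing of TNF superfamily ligands 6 fell, 1 rose and 2 were not called, with a median of -1.07. That is 77.8% called, beside 67.7% of all tested genes (32.5% lower). The list held LITAF, which is not itself a shedding or processing gene. LITAF was among the 6 that fell, and its log2 fold change of -1.07 was the list median. The proprotein convertase FURIN, which cleaves several of these ligands, fell from 314 ± 52.2 to 17.5 ± 0.269 FPKM (log2 fold change -4.08, limma adjusted p = 8.22e-07). RHBDF1, which supports maturation of the TNF sheddase, and SPPL2A, a protease of the ligand stubs, each fell by 1.42, and the sheddase ADAM10 fell by 1.14 (adjusted p = 0.0265). Omitting any library but sensitive replicate 3 ended the ADAM10 call (adjusted p between 0.057 and 0.0927), as did testing all genes unfiltered (0.0583). ADAM17, the TNF sheddase, was at 6.11 ± 1.43 and 6.41 ± 0.36 FPKM and was not called (log2 fold change 0.08, adjusted p = 0.698).

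**Figure D5:**
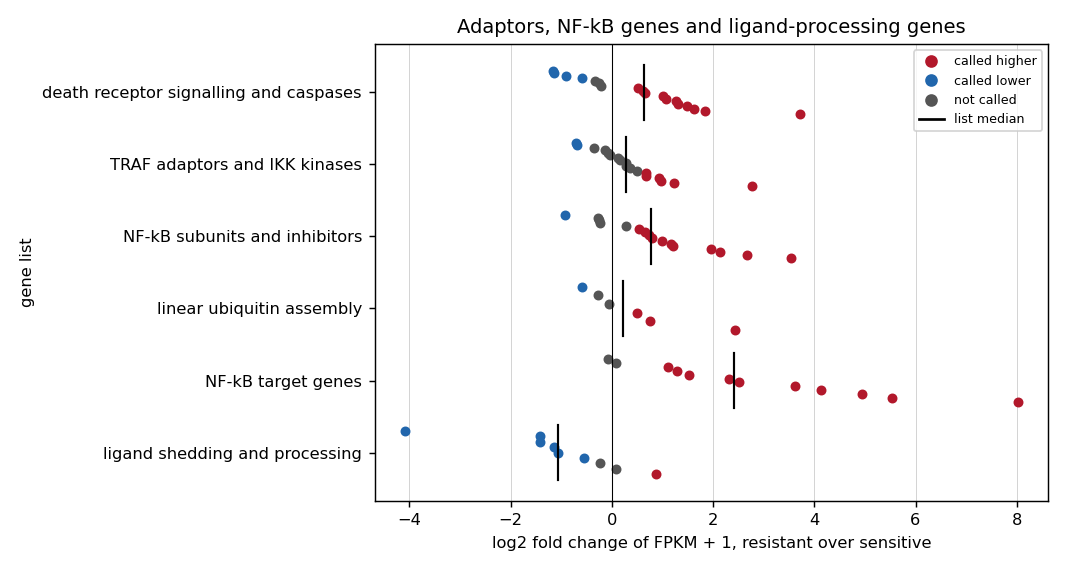
Log2 fold change of FPKM + 1 (x axis, resistant over sensitive) of each tested gene in 6 lists (y axis); red points were called higher, blue points lower and grey points not called, and vertical bars are list medians. NF-κB target genes have the highest list median (2.41), with 4 of the 12 under 1 FPKM in every sensitive library. The ligand shedding and processing list has the lowest (-1.07), which is the value of LITAF.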

How the data were processed

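RNA-seq of 6 libraries was analysed, 3 sensitive and 3 resistant by their titles. The authors deposited a table of gene symbols and values for each library, which the values show to be FPKM or RPKM and which are called FPKM here. The tools cutadapt (a read trimmer) and HISAT2 (an aligner) appear in the submitters' processing notes; not given in the sources used here were versions, counting program, strand setting, build and annotation. Of 20085 genes above 0 in at least 2 libraries, 100% lay on whole steps whose size depended on the gene (tolerance 0.02 steps), and the step in each library was inversely proportional to its summed steps within 0.054%. A step was therefore taken as 1 read, and implied reads are the smallest whole numbers that give the values. No pair of libraries held an identical value above 0 for any gene.

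The tested genes reached 1 FPKM in 3 or more libraries. On log2(FPKM + 1), limma 3.58.1 with a mean-variance trend (R 4.3.3) was used, all 6 libraries in 1 fit of group without a block (4 residual and 2.75 prior degrees of freedom), and genes were called at a Benjamini-Hochberg adjusted p under 0.05 over all tested genes. The code of the fit was run on data simulated with independent noise and few changed genes, unlike these libraries. That run therefore does not show how the fit behaves here. Tables and figures used Python 3.11.15, pandas 2.3.3, numpy 2.4.6 and matplotlib 3.10.9. Members and gene lists were chosen with earlier results of these data known. Members with a mean of at least 1 FPKM in either group were named by their values in every library, and up to 4 called genes of each list by size of change; other genes named in the text were chosen after their values were seen, and some genes that this rule names are not reported here. Alternatives were another pseudocount, other filters and scalings, no trend, a 1.5-fold threshold, a replicate block and each library left out with the tested genes kept; limma voom on the implied reads was added after seeing the data.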

Additional observations from a re-analysis of the deposited data

How the results depend on the processing

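Of 305 recomputed fold changes of 21 tested members, 295 kept their direction and side of the threshold. The directions that turned were those of TNFRSF10D (0.12; -1.09 to 0.12 over all libraries left out) and TNFRSF10A-DT (0.11; -0.14 to 0.11), both without sensitive replicate 3 and both uncalled. A mean of at least 5 FPKM tested fewer genes and called 4973 of 7396 (67.2%). It called 6 of 7 tested receptors (5 higher, 1 lower) and 3 of 4 tested ligands (2 higher, 1 lower). Of 12 tested TRAF adaptors and IKK kinases it called 5. With no filter 10 of 15 ligands were called, 4 of them lower, beside 10039 of 22521 genes (44.6%). The test against a 1.5-fold change is stricter and calls fewer genes by construction. It called 4357 of 11694 genes (37.3%). Called were 8 of 18 death receptor signalling genes, 2 of 18 TRAF and IKK genes, 6 of 16 NF-κB subunits and inhibitors and 1 of 6 linear ubiquitin genes. Leaving out each library gave 6675 to 9442 called genes (57.1% to 80.7%). It called 10 to 12 of 13 receptors, 6 to 7 of 7 ligands and 5 to 10 of 18 TRAF and IKK genes. Voom on the implied reads called 7817 genes (66.8%), 11 of 13 receptors and 6 of 7 ligands. Its log2 fold changes were 10.58 for TNFSF18, 9.92 for CD40 and -8.42 for TNFSF10. The rank of CD40 as the highest member thus depended on the scale. Same-numbered libraries did not deviate together (Pearson's r of deviations -0.422, 0.072 and -0.228), so the numbers were not taken as pairs. With the replicate block 7193 genes (61.5%), 11 of 13 receptors and 6 of 7 ligands were called. Among the 21 members and 28 genes of the lists recomputed singly RNF31 alone lost its call (limma adjusted p = 0.055). Levels under about 10 implied reads rest on counting noise.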

Other observations

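Of 9 tested relatives of the families that the member rule does not name, 5 were lower in resistant cells, 2 higher and 2 not called. Their median log2 fold change was -0.86, and 77.8% were called, beside 67.7% of all tested genes (32.5% lower). The filter fixed part of these directions. The 2 called higher were under 1 FPKM in every sensitive library, and 1 of those called lower was under 1 FPKM in every resistant library. Among the other 6, 4 were lower, 0 higher and 2 not called. Over all genes of that kind 61.9% were called and 29.7% were lower. RELL2, a binding partner of the TNF receptor family protein RELT, fell from 18.8, 22.2 and 47.9 FPKM in the sensitive to 5.60, 3.82 and 4.62 FPKM in the resistant libraries (log2 fold change -2.32, limma adjusted p = 0.000833). C1QTNF1, a secreted protein with a domain related in fold to TNF, fell from 5.21 ± 0.46 to 1.46 ± 0.198 FPKM (-1.33, limma adjusted p = 7.55e-05). Sortilin (SORT1) and BEX3, which both act with NGFR, were also among the 5 called lower, while NGFR and its ligand gene BDNF rose.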
